A study of Mus musculus with 8 samples.

Results

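The potassium channel genes described here are all probes whose gene symbol in the platform annotation begins with Kcn. They numbered 80 genes, of 16593 gene symbols on the array, and these were read by 119 of its 25697 probes. The mice were male Fmod knockouts on the C57BL/6 background, 13 weeks of age, and RNA of their hypothalamus and of their liver was read on 4 arrays each. All 8 samples carried the knockout of Fmod, the gene of the matrix proteoglycan fibromodulin, and no other treatment is labelled. The labels do not say how the allele was made, and wild-type arrays were not analysed here, so the only contrast is between the tissues of knockout mice. The series text speaks of 4 mice with both organs taken, but no label ties a replicate number to one mouse, and the p-values below measure the spread between these arrays, which may be technical.

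Potassium channels let potassium ions leave the cell along their gradient, which holds the membrane at a negative resting potential and ends each action potential. Pore-forming alpha subunits fall into voltage-gated (Kv), inward rectifier (Kir), tandem-pore leak (K2P) and calcium- or sodium-activated classes, and auxiliary subunits set their gating and delivery to the membrane. In hypothalamic neurons these channels shape firing rate and, in cells that sense nutrients, couple metabolism to excitability. Hepatocytes do not fire action potentials, and their potassium channels are known mainly for volume regulation and for driving transport.

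Values are log2 intensities after background correction and quantile normalization of all 8 arrays, and a difference is the hypothalamus mean minus the liver mean on that scale. The fit was limma's moderated test over all 25697 probes, with Benjamini-Hochberg adjustment, and a probe was called at an adjusted p under 0.05. For size, limma's treat tested each difference against 2-fold. A probe was detected on an array when its deposited detection p-value was under 0.05. Where a probe was detected on no array of the dimmer tissue, the difference is given as "at least" a fold, against the detection floor of each array. That fold is taken from the means over the arrays. It carries no sampling error, so it is not a confidence limit. The floor lay at 4.86 to 4.92 in hypothalamus and at 5.50 to 5.69 in liver, so a dim probe needed a higher value to be detected in liver. Levels of different probes are not compared.

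The targeted gene and tissue markers were read first. The 2 Fmod probes were detected on 1 of 8 arrays (ILMN_2999762, 5.23 in hypothalamus replicate 2), with all other values between 4.32 and 5.13. With no wild-type array beside them, these values do not test the knockout. All 9 hypothalamic neuropeptide genes with a probe were called higher in hypothalamus, and all 9 hepatocyte genes with a probe were called higher in liver. The summed intensity of the hepatocyte genes was 277.5 to 305.2 in hypothalamus and 154100 to 157800 in liver. Of 8 neuronal marker genes, all with a probe, 5 were called higher in hypothalamus and none higher in liver. Their sum was 56990 to 61930 in hypothalamus and 250.7 to 343.9 in liver. The probes for Snap25 and Nefl were detected on no array. The Tubb3 probe, detected on 2 hypothalamus arrays and 1 liver array, differed by -0.02 and was not called (limma adjusted p 0.957). Hypothalamus replicate 3 stood apart in the choroid plexus and ependyma markers, with a summed intensity of 24250 against 2439, 2780 and 2917 on the others. It also had the highest sum of thalamus and striatum markers, 4790 against 1825 to 1994, of oligodendrocyte markers, 61560 against 48490 to 50780, and of smooth muscle and pericyte markers, 4185 against 2305 to 2728. In whole tissue, fewer cells of a type and less RNA per cell cannot be told apart.

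Potassium channel transcripts were mostly a hypothalamus signal. Each hypothalamus array detected 56 to 63 of the 119 probes (47.1% to 52.9%), close to the 51.7% to 53.5% of all probes detected there. Each liver array detected 10 to 14 of them (8.40% to 11.8%), where 40.1% to 42.1% of all probes were detected. Across the 4 arrays of a tissue, 47 Kcn probes of 40 genes were detected on every hypothalamus array (39.5%, against 46.5% of all probes). Only 6 Kcn probes of 5 genes were detected on every liver array (5.04%, against 35.2% of all probes). These 5 genes were Kcnk5, Kcnk6, Kcns1, Kcnn1 and Kcnmb4. A further 43 Kcn probes (36.1%, against 34.3% of all probes) were detected on no array, and 20 genes had no detected probe in either tissue.

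The 2 tissues can be set against each other probe by probe. Of the 119 probes, 32 (26.9%) from 29 genes were detected throughout hypothalamus and nowhere in liver, against 9.09% of all probes. When the hypothalamus mean also had to exceed the highest liver floor, a rule added after seeing that the liver floor was higher, 28 Kcn probes (23.5%) remained of these, against 6.59% of all probes. The reverse pattern was found in 1 Kcn probe (0.84%, against 2.16% of all probes), a probe for Kcnk5. In the fit, 44 Kcn probes (37.0%) of 37 genes were called higher in hypothalamus, against 22.6% of all probes, and 39 of them (32.8%) were detected on all 4 hypothalamus arrays, against 21.4%. In liver, 9 Kcn probes (7.56%) of 7 genes were higher, against 21.8% of all probes, and 4 of these (3.36%) were detected on all 4 liver arrays, against 18.3%. Beyond 2-fold, 29 Kcn probes (24.4%) of 23 genes were higher in hypothalamus, against 11.2% of all probes, and 2 probes (1.68%), both for Kcnk5, were higher in liver, against 9.85%.

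Small differences moved with the scaling, while the larger ones held their direction. Of the 9 probes called higher in liver, the 7 not for Kcnk5 had a difference above 0 in the authors' values, and 1 of the 44 called higher in hypothalamus, Kcnh6, had one below 0 under median scaling. With each array scaled to its median in place of quantile normalization, the calls split into 40 Kcn probes towards hypothalamus and 40 towards liver, where the quantile scale gave 44 and 9. The table that the authors normalized split 98 and 2. The median difference of all probes was -0.05 in the quantile fit, -0.30 with median scaling and 0.17 in the authors' values. The median over the Kcn probes was 0.14, -0.05 and 0.25 in the same order, so it stayed above that of all probes in each. Of the 43 probes detected on no array, 34 were called higher in liver under median scaling and 34 higher in hypothalamus in the authors' values. In the quantile fit 2 of them were called in each direction, with differences from -0.58 to 0.31. All 31 probes beyond 2-fold were called in the same direction in every one of 14 alternative fits, and 14 of them stayed beyond 2-fold in every one. A call beyond 2-fold is a call by treat on normalized values, which can lie below the detection floor. Of the 29 towards hypothalamus, 23 were detected on no liver array, and 8 of these reached less than 2-fold against the floor.

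**Figure D1:**
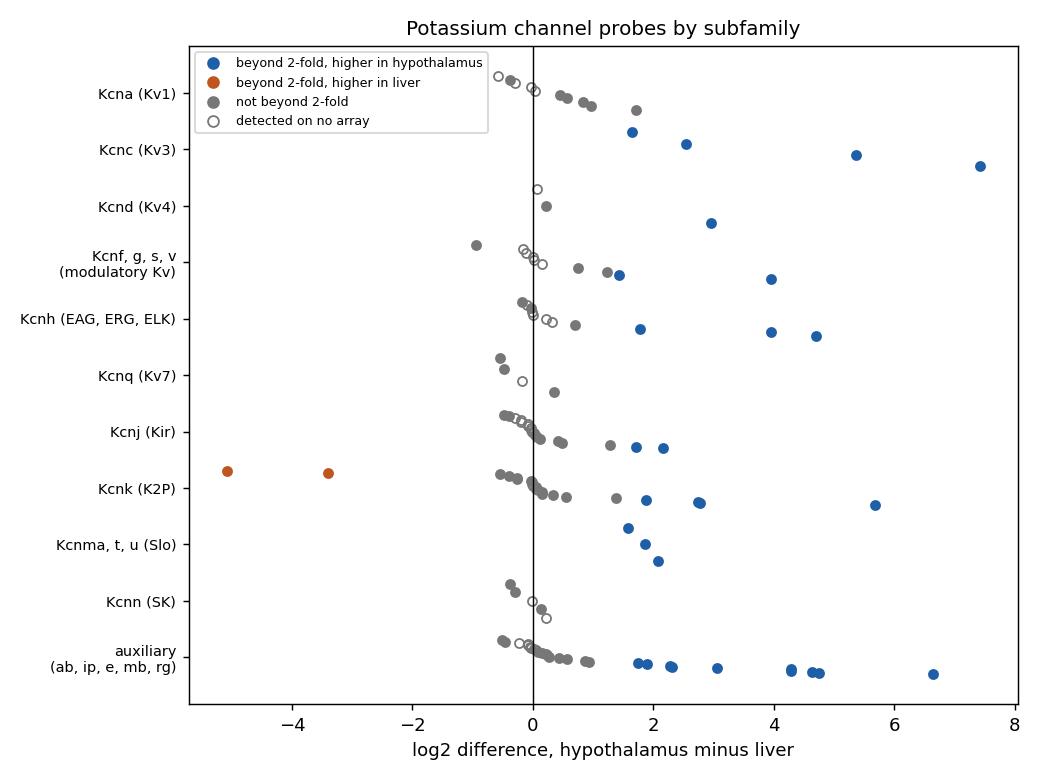
Each point is one Kcn probe, placed by its log2 difference (hypothalamus minus liver, x axis) in the row of its subfamily (y axis), with filled blue and orange points beyond 2-fold, grey points not beyond it and open points detected on no array. The Kv3 row lies wholly to the right of 0, from 1.64 to 7.43, the SK row stays between -0.39 and 0.21, and the only orange points are 2 probes for Kcnk5.

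The widest difference of any Kcn probe was that of Kcnc4, and Kcnc1, of the same subfamily, came after Kcnab2 and Kcnk1. Kcnc4 and Kcnc1 encode Kv3 alpha subunits, which open only on strong depolarization and close fast, and so let neurons fire at high rates. The Kcnc4 probe ILMN_2771095 read 12.31, 12.11, 12.45 and 11.88 on the hypothalamus arrays and 5.0, 4.72, 4.77 and 4.56 on the liver arrays. All 4 hypothalamus values lay far above the liver values, none of which was detected. The difference was 7.43 (SE 0.14, n = 4 and 4, limma adjusted p 1.54e-10), or at least 97.4-fold. The Kcnc1 probe ILMN_2717814 read 9.89, 9.96, 9.94 and 9.78 in hypothalamus and 4.54, 4.53, 4.58 and 4.48 in liver. Its arrays agreed closely within each tissue, and its difference was 5.36 (SE 0.08, limma adjusted p 2.37e-11), or at least 19.8-fold. The second probes of both genes were also beyond 2-fold, with smaller differences of 2.54 for Kcnc4 and 1.64 for Kcnc1. The 4 Kcnc probes were thus all called beyond 2-fold by treat, although Kcnc1 ILMN_1239595 reached at least 1.41-fold against the floor and kept that call in 11 of the 14 alternatives.

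Promoters are shown for the 3 pore-forming subunit genes with the widest differences towards hypothalamus, Kcnc4, Kcnk1 and Kcnc1, and for Kcnk5, the one gene beyond 2-fold higher in liver. Each window holds 250 bases before and 50 bases after a transcript start in RefSeq on GRCm38.p6, read 5′ to 3′ on the gene's strand, with CG dinucleotides in capitals.
Kcnc4: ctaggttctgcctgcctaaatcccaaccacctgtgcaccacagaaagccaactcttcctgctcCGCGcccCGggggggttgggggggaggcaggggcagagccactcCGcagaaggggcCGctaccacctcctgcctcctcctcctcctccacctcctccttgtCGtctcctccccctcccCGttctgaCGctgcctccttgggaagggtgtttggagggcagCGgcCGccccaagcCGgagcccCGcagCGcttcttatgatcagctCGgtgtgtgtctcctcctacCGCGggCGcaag
Kcnc1: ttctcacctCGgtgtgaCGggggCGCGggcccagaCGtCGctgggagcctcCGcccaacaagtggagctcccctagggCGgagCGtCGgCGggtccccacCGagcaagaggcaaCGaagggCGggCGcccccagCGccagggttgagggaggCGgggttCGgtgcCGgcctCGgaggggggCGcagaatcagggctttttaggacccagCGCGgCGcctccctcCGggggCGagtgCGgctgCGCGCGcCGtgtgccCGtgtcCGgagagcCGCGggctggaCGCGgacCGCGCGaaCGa
Kcnk1: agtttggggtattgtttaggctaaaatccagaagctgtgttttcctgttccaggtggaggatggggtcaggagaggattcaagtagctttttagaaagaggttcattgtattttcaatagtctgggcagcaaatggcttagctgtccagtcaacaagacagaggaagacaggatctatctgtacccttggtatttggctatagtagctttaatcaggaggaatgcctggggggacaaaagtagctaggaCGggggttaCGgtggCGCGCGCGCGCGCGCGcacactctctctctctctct
Kcnk5: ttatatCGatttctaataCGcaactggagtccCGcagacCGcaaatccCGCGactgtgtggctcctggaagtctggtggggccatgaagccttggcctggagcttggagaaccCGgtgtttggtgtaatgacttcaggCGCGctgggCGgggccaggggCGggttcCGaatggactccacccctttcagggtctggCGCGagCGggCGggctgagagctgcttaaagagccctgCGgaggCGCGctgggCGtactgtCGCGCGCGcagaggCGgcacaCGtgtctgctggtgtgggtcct
They lie at chr3:107458849-107459148 on the minus strand (Kcnc4), chr7:46396218-46396517 on the plus strand (Kcnc1), chr8:125994852-125995151 on the plus strand (Kcnk1) and chr14:20181733-20182032 on the minus strand (Kcnk5). The windows hold 17, 41, 10 and 26 CG dinucleotides in that order, where the median of all 32851 windows of 27025 genes was 7. The 84 windows found for 62 of the Kcn genes had a median of 9, the 34 windows of 19 genes beyond 2-fold in hypothalamus had 7.5, and the 19 windows of 17 genes with no detected probe had 11. The letters TATAAA, searched on both strands, were found in none of the 4 windows printed, in 4 of 84 Kcn windows (4.76%) and in 13.6% of all windows.

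Among the Kv1 genes (Kcna, Shaker-type channels, several of them axonal), 4 of 10 probes were called towards hypothalamus and 1 towards liver, and none was beyond 2-fold in either direction. Of all probes, 22.6% were called higher in hypothalamus, 11.2% beyond 2-fold there, and 21.8% higher in liver. The counts of the other subfamilies stand beside the same shares. Kcna2, an axonal subunit, read 7.69, 6.48, 7.11 and 5.96 in hypothalamus and 4.92, 4.87, 5.30 and 5.30 in liver. The groups did not overlap, but the hypothalamus arrays spread widely, with replicate 1 highest and replicate 4 lowest. The difference was 1.72 (SE 0.33, limma adjusted p 0.00186). The means gave at least 2.34-fold against the floor, but with this spread treat did not call it beyond 2-fold (adjusted p 0.132). Kcna6 (probe ILMN_3163078) differed by 0.96 (SE 0.17, adjusted p 0.00111, at least 1.20-fold) and Kcna5 by 0.83 (SE 0.12, adjusted p 0.000311). Both were detected on all 4 hypothalamus and no liver arrays. The hypothalamus mean of Kcna5, 5.30, lay below the liver floor. The same level would go undetected in liver, and no minimum fold can be given. Kcna3, a subunit known from lymphocytes and named after its values were seen, was detected on 4 hypothalamus and 2 liver arrays with overlapping values, and its difference of -0.39 was not called (adjusted p 0.191). The liver call was for Kcna10, which was detected on no array and whose sign turned in the authors' values. Kcna4 and Kcna7 were also detected on none.

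No Kv2 probe (Kcnb) was analysed here. Of the Kv4 genes (Kcnd), whose A-type current activates below threshold and delays firing, Kcnd2 alone was called. Its probe read 8.36, 7.37, 7.44 and 7.25 in hypothalamus and 5.05, 4.53, 4.47 and 4.54 in liver, where no array detected it. Hypothalamus replicate 1 was the highest array, and the groups stayed apart. The difference was 2.96 (SE 0.25, limma adjusted p 5.13e-06), at least 4.06-fold. Kcnd1 was detected on 1 array and Kcnd3 on none.

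The modulatory Kv subunits (Kcnf, Kcng, Kcns and Kcnv) form no channel on their own and join Kv2 subunits to change their gating. Of 10 probes, 3 were called towards hypothalamus and 1 towards liver. Kcnf1 read 9.0, 8.90, 8.84 and 8.91 in hypothalamus and 4.64, 4.67, 4.71 and 5.79 in liver, where replicate 4 alone was detected. The difference was 3.96 (SE 0.24, limma adjusted p 5.14e-07), and it was 4.30 without liver replicate 4. Kcns2 (1.43, SE 0.11, adjusted p 2.79e-06, at least 1.49-fold) was called beyond 2-fold by treat, and in 9 of the 14 alternatives. Kcnv1 (1.22, SE 0.16, adjusted p 0.000143, at least 1.22-fold) was not called beyond 2-fold by treat (adjusted p 0.403). Kcns1 ran the other way, at 4.59, 5.28, 4.91 and 4.86 in hypothalamus and 5.64, 6.00, 5.79 and 5.99 in liver. Every liver value lay above every hypothalamus value and was detected, as were 2 of the hypothalamus values. Its difference was -0.94 (SE 0.15, adjusted p 0.00061), 1.92-fold higher in liver, but the authors' values gave 0.01 (adjusted p 0.888).

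Of the Kcnh genes (EAG, ERG and ELK channels), Kcnh2 gave the widest difference. It encodes the ERG channel, which carries the rapid delayed rectifier of heart and limits firing in neurons. Its probe ILMN_1244402 read 8.98, 9.09, 9.33 and 9.14 in hypothalamus and 4.36, 4.43, 4.48 and 4.44 in liver, with no liver array detected. The difference was 4.71 (SE 0.09, limma adjusted p 1.86e-10), at least 11.7-fold. A second Kcnh2 probe differed by 3.96 (at least 10.7-fold), and another was detected on no array, with a difference of 0.01. Kcnh1, an EAG channel, read 7.18, 6.23, 6.79 and 6.12 in hypothalamus and 4.97, 5.02, 4.53 and 4.70 in liver (ILMN_2668260), a difference of 1.78 (SE 0.24, adjusted p 0.000148, at least 2.0-fold). It was called beyond 2-fold by treat (adjusted p 0.0235) and in 8 of the 14 alternatives. The 2-fold call was lost without hypothalamus replicate 1 (1.49, adjusted p 0.0768), hypothalamus replicate 3 (1.67, adjusted p 0.0805) or liver replicate 3 (1.74, adjusted p 0.0519), and with cyclic loess (1.11), no background correction (0.58) and the authors' values (0.98). The other Kcnh1 probe, detected on 2 hypothalamus arrays and no liver array, differed by -0.02 and was not called (limma adjusted p 0.900). Over the class, 6 of 11 probes were called higher in hypothalamus and none higher in liver. Of these 6, 3 were detected on all 4 hypothalamus arrays. The calls include Kcnh5 (0.31) and a Kcnh6 probe (ILMN_2534475, 0.22), both detected on no array. Under median scaling that Kcnh6 probe had a difference of -0.11. Kcnh4 and Kcnh7 were also detected on no array.

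The Kv7 genes (Kcnq), which carry the M-current that muscarinic receptors close, gave little signal. None of the 4 probes was detected on all 4 arrays of either tissue. Kcnq5 alone was called (0.35 higher in hypothalamus), and it was detected on 1 array. Kcnq3 was detected on 2 hypothalamus arrays and 1 liver array, and Kcnq1 on 1 liver array.

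Among the inward rectifiers (Kcnj), which hold the resting potential and pass little outward current, 4 of 19 probes were called towards hypothalamus, against 22.6% of all probes. Towards liver 1 was called, against 21.8%, a probe for Kcnj6 that was detected on no array. In all, 10 Kcnj probes were detected on no array. Kcnj16, a subunit that pairs with Kcnj10 in glia, read 7.25, 7.38, 7.23 and 7.35 in hypothalamus and 5.86, 4.91, 4.55 and 5.28 in liver. The hypothalamus arrays were tight and the liver arrays loose, with only liver replicate 1 detected. The difference was 2.15 (SE 0.24, limma adjusted p 4.33e-05). Kcnj12, a strong rectifier, differed by 1.71 (SE 0.18, adjusted p 3.25e-05, at least 1.47-fold). Kcnj9, a G protein-gated subunit, differed by 1.28 (SE 0.17, adjusted p 0.000163, at least 1.14-fold). Kcnj4, another strong rectifier, differed by 0.49 (SE 0.13, adjusted p 0.0103), and its lowest hypothalamus value, 5.86, lay just above the highest liver value, 5.83. With cyclic loess in place of quantile normalization its difference was 0.17 and was not called (adjusted p 0.257).

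The vascular ATP-sensitive channel is built from the pore Kcnj8 and the sulfonylurea receptor Abcc9. Kcnj8, named here after its values were seen, read 5.28, 5.41, 5.53 and 5.53 in hypothalamus and 4.90, 6.13, 6.04 and 6.61 in liver. The tissues overlapped, because liver replicate 1 lay below every hypothalamus array and the other liver arrays above, and the difference of -0.48 was not called (SE 0.31, adjusted p 0.264). Cyclic loess gave -0.70, a call towards liver (adjusted p 0.0187), while in the authors' values it was 0.16 (adjusted p 0.133). Its partner Abcc9 read 5.43, 5.0, 5.67 and 5.67 in hypothalamus and 8.32, 7.99, 7.92 and 7.50 in liver, a difference of -2.49 (SE 0.20, limma adjusted p 4.4e-06), or 5.60-fold higher in liver. The Abcc9 difference was below 0 and called under each scaling run, but its size was not stable. It was -2.69 with cyclic loess, -1.14 with no background correction and -0.83 in the authors' values. Whether it differs from that of Kcnj8 was not tested.

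The K2P leak channels (Kcnk) held the gene with the widest liver difference and several genes higher in hypothalamus. Of 22 probes, 6 were called towards hypothalamus and 4 towards liver, against 22.6% and 21.8% of all probes. Kcnk5 encodes TASK-2, a leak channel opened by alkaline pH and known from kidney tubules and from brainstem cells that sense carbon dioxide. Its probe ILMN_2982781 read 4.82, 5.05, 5.37 and 5.31 in hypothalamus and 10.49, 10.24, 9.67 and 10.50 in liver. Liver replicate 3 was the lowest of the liver arrays and still far above every hypothalamus array. The difference was -5.09 (SE 0.20, limma adjusted p 2.21e-08), or 34.0-fold higher in liver. A second probe, ILMN_1232263, read 4.57, 4.55, 4.57 and 4.39 in hypothalamus and 8.05, 8.12, 7.27 and 8.24 in liver, with replicate 3 again lowest. Its difference was -3.40 (SE 0.20, adjusted p 3.59e-07), at least 8.11-fold. The last Kcnk5 probe, ILMN_1249949, was detected on 1 hypothalamus and no liver array and differed by -0.27 (SE 0.19, adjusted p 0.315). This gene therefore rests on 2 of its 3 probes.

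Kcnk1 (TWIK-1, a weak leak channel of neurons and glia) read 10.52, 10.40, 10.64 and 10.50 in hypothalamus and 4.68, 5.03, 4.64 and 5.03 in liver, where it was not detected. The difference was 5.67 (SE 0.12, limma adjusted p 2.52e-10), at least 30.5-fold. Kcnk13, known as a channel of microglia, differed by 2.78 (SE 0.14, adjusted p 1.07e-07, at least 4.64-fold). Kcnk2 (TREK-1, opened by stretch and lipids) differed by 2.74 on one probe (SE 0.13, at least 5.16-fold) and by 0.33, not called, on the other. Kcnk3 (TASK-1, closed by acid) differed by 1.88 (SE 0.12, adjusted p 8.58e-07, at least 1.85-fold). Kcnk6 (TWIK-2, related to Kcnk1) was detected on all 8 arrays, at 7.13 to 7.27 in hypothalamus and 7.66 to 7.80 in liver. Its difference was -0.55 (SE 0.08, adjusted p 0.000238), but it turned to 0.04 under median scaling (adjusted p 0.735) and 0.17 in the authors' values (adjusted p 0.00643), so its direction depended on the scaling. The other Kcnk6 probes differed by 0.15 (detected on 3 hypothalamus arrays and 1 liver array) and 0.09 (detected on none), neither called.

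The 3 probes of the large-conductance and sodium-activated channels were all called beyond 2-fold in hypothalamus by treat, each in 11 of the 14 alternatives too. Kcnma1, the BK channel opened by voltage and calcium together, read 7.16, 6.18, 6.17 and 6.07 in hypothalamus and 4.65, 4.79, 4.33 and 4.33 in liver. Replicate 1 was about 1 unit above the other hypothalamus arrays, and all 4 lay above the liver arrays. The difference was 1.87 (SE 0.24, limma adjusted p 0.000122, at least 1.75-fold), and 1.51 without hypothalamus replicate 1. Kcnt1, a sodium-activated channel, differed by 1.59 (SE 0.09, adjusted p 2.41e-07, at least 1.65-fold). Kcnu1, a pH-dependent channel known from sperm, read 6.78, 6.26, 6.50 and 6.93 in hypothalamus and 4.35 to 4.86 in liver, a difference of 2.08 (SE 0.17, adjusted p 3.96e-06, at least 2.05-fold). Each of the 3 genes was measured by 1 probe.

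The small- and intermediate-conductance channels (Kcnn), which open with intracellular calcium and, in neurons, prolong the hyperpolarization after a spike, held no called probe among 5. Kcnn1 was detected on all 8 arrays, at 6.16, 6.36, 6.30 and 6.63 in hypothalamus and 6.53, 6.58, 6.27 and 7.27 in liver. The tissues overlapped, and the difference of -0.30 was not called (SE 0.21, adjusted p 0.297). Its sign turned under median scaling (0.40, adjusted p 0.0758) and in the authors' values (0.31, adjusted p 0.0219). Kcnn2 and Kcnn4 were detected on 2 and 1 arrays, and Kcnn3 on none.

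**Figure D2:**
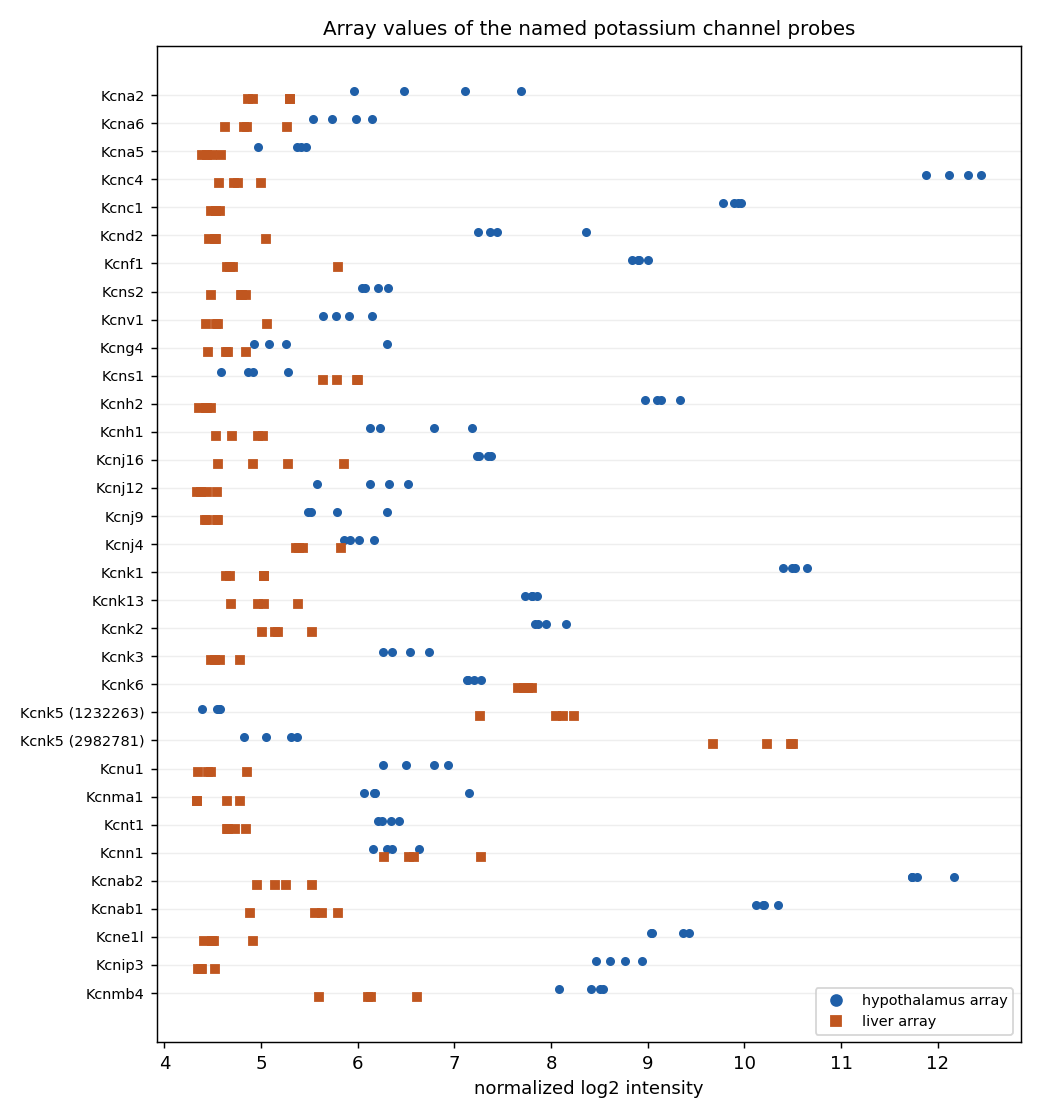
Each row is one named Kcn probe, with its normalized log2 intensity (x axis) on the 4 hypothalamus arrays (blue circles) and the 4 liver arrays (orange squares). Liver values lie to the right of the hypothalamus values for Kcns1, Kcnk6 and both Kcnk5 probes, the values of Kcnn1 overlap, and in the other rows the hypothalamus values lie to the right.

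Of the 28 auxiliary subunit probes, 12 were called towards hypothalamus, 10 of them beyond 2-fold, and 2 towards liver. Kcnab2, a cytoplasmic beta subunit of Kv1 channels, read 11.74, 11.79, 12.17 and 11.73 in hypothalamus and 5.14, 5.53, 5.25 and 4.96 in liver. No liver array detected it, and hypothalamus replicate 3 lay above the other hypothalamus arrays. The difference was 6.64 (SE 0.15, limma adjusted p 3.96e-10), at least 77.4-fold. Kcnab1, the related beta subunit that speeds Kv1 inactivation, differed by 4.75 (SE 0.18, adjusted p 1.7e-08) on probe ILMN_2915671, detected on 2 liver arrays, and by 4.29 on a second. The last Kcnab1 probe, detected on 4 hypothalamus and 2 liver arrays, differed by 0.09 and was not called.

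Kcne1l, a minK-type subunit, read 9.04, 9.37, 9.03 and 9.43 in hypothalamus and 4.41 to 4.91 in liver. The difference was 4.64 (SE 0.14, limma adjusted p 3.93e-09), at least 12.4-fold. Kcnip3, a calcium-binding KChIP subunit of Kv4 channels also known as the repressor DREAM, differed by 4.29 (SE 0.11, adjusted p 1.25e-09, at least 8.65-fold). Kcnip1 (2.31, at least 2.34-fold) and Kcnip4 (1.74, at least 1.60-fold), further KChIPs named here to complete the set, were also called beyond 2-fold by treat, in 12 and 11 of the 14 alternatives. The other Kcnip1 probe was detected on no array and differed by -0.04, not called. Kcnmb4, the neuronal BK beta subunit, was detected on all 8 arrays by probe ILMN_2639207, at 8.09, 8.41, 8.54 and 8.51 in hypothalamus and 6.13, 6.62, 5.60 and 6.11 in liver. The groups were far apart, and the difference was 2.27 (SE 0.20, adjusted p 8.24e-06), or 4.83-fold. The other Kcnmb4 probes differed by 3.06 and 1.89, so all 3 were called beyond 2-fold, in 7 to 13 of the 14 alternatives. The 2 auxiliary calls towards liver were both probes for Kcne1, at -0.51 and -0.47, with overlapping tissue values and a sign that turned in the authors' values. Kcne3, Kcnmb1 and Kcnmb2 were detected on no array.

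The probes of one gene often differed in size. Of the 80 genes, 26 had more than 1 probe, and 9 of these had at least 1 probe beyond 2-fold. In Kcnc1, Kcnc4 and Kcnmb4 every probe was beyond 2-fold. In the other 6 (Kcnab1, Kcnh1, Kcnh2, Kcnip1, Kcnk2 and Kcnk5) at least 1 probe was not. No gene had called probes in both directions. The transcripts each probe reads were not analysed here.

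**Figure D3:**
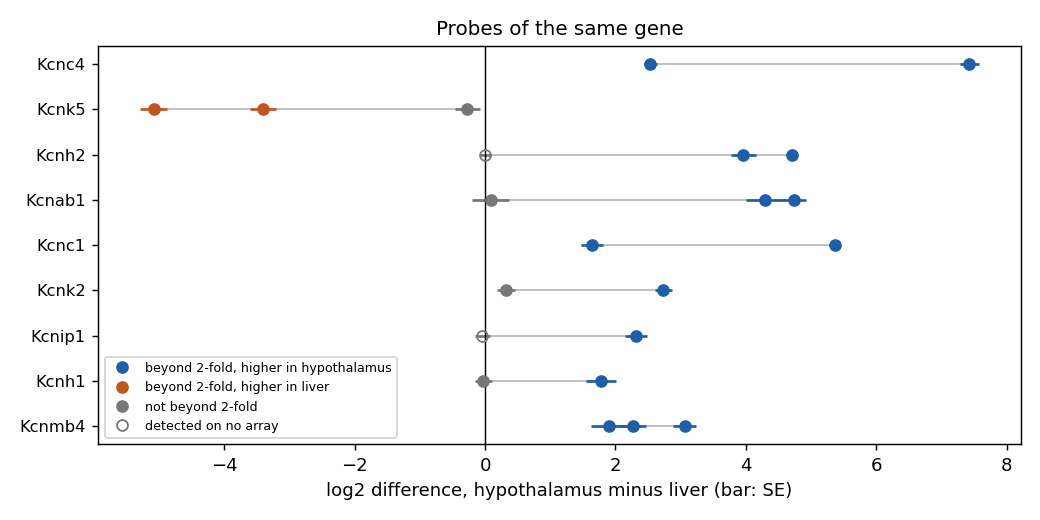
Each point is one probe of a gene with several probes, placed by its log2 difference (hypothalamus minus liver, x axis) with its SE as a bar, for the 9 genes (rows) with at least 1 probe beyond 2-fold. Blue and orange points are beyond 2-fold, grey points are not, and open points were detected on no array. Probes of Kcnc4 differ by 2.54 and 7.43, and the probes of Kcnk5 run from -5.09 to -0.27.

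Hypothalamus arrays were not uniform in these genes. The 5 genes with the highest SD over the 4 hypothalamus arrays, among probes detected on all 4, were Kcna2 (SD 0.75), Kcng4 (0.63), Kcnd2 (0.51), Kcnma1 (0.51) and Kcnh1 (0.50). Replicate 1 was highest for Kcna2, Kcnd2, Kcnma1 and Kcnh1. Of 13 sodium and calcium channel genes detected on all 4 hypothalamus arrays, 5 were highest on replicate 1, 1 on replicate 2, 4 on replicate 3 and 3 on replicate 4. Among those 5, Cacna2d1 read 10.7 on replicate 1 against 9.0 to 9.3 on the others, and Scn1a 9.7 against 8.0 to 8.8. On replicate 3, Scn4b stood out in the same way, at 9.6 against 7.6 to 8.3. Whether the excess on replicate 1 is particular to Kcn genes was not tested. The neuronal marker sum of replicate 1, 60840, lay within the range of the others. Kcnd2 was 2.61 and Kcna2 was 1.36 without replicate 1, and both were still called higher in hypothalamus.

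Replicate 3 was highest for Kcng4 and for Kcne2. Kcng4, a modulatory Kv subunit, read 5.08, 4.92, 6.31 and 5.26 in hypothalamus and 4.46 to 4.84 in liver (ILMN_2895511), a difference of 0.74 that was not called (SE 0.27, limma adjusted p 0.0537). It was called without replicate 3 (0.43, adjusted p 0.0237), without replicate 2 (0.85, adjusted p 0.0342), with the detection filter (adjusted p 0.0283), in the authors' values (0.48, adjusted p 0.00397) and with the replicate number as a block (adjusted p 0.0265). Kcne2, a minK-type subunit known from stomach and choroid plexus and named after its values were seen, read 4.30, 4.48, 7.40 and 4.79 in hypothalamus and 4.50 to 4.79 in liver. Replicate 3 alone was detected, and the difference of 0.57 was not called (SE 0.60, adjusted p 0.514), with -0.15 without that array. The choroid plexus genes Ttr (5.42, 7.88, 14.32 and 7.79), Aqp1 (4.79, 4.57, 7.36 and 4.59), Kl (6.06, 5.81, 8.18 and 6.09) and Folr1 (4.69, 5.28, 7.31 and 5.13) were highest on the same array. Of the 8 genes on that marker list, all with a probe and none undetected throughout, Rarres2 and Foxj1 were not highest there, at 9.80 and 5.43. The part of these cells in the Kcne2 and Kcng4 values was not tested.

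**Figure D4:**
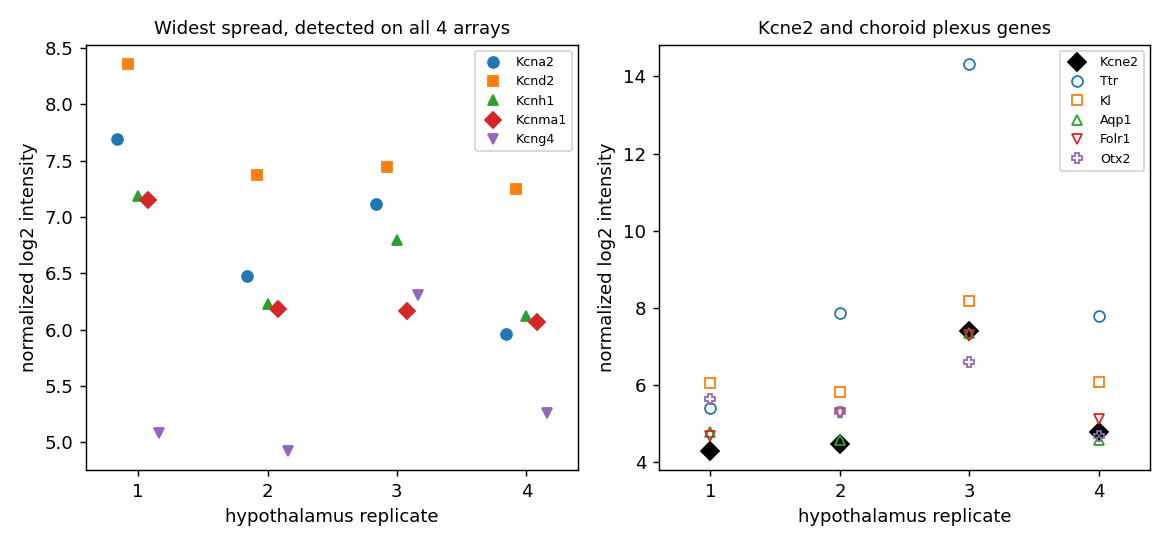
Normalized log2 intensity (y axis) on the 4 hypothalamus replicates (x axis) for the 5 Kcn genes with the widest spread (left, points offset sideways) and for Kcne2 with choroid plexus genes (right). Replicate 1 is highest for Kcna2, Kcnd2, Kcnh1 and Kcnma1, and replicate 3 is highest for Kcng4 (6.31), Kcne2 (7.40) and Ttr (14.32).

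In liver, the 5 genes with a probe detected on all 4 arrays had SDs of 0.44 (Kcnk5, ILMN_1232263), 0.43 (Kcnn1), 0.41 (Kcnmb4), 0.18 (Kcns1) and 0.06 (Kcnk6). Among probes detected on all 4 liver arrays, replicate 3 was lowest for both Kcnk5 probes, Kcnn1 and Kcnmb4 (ILMN_2639207), but not for Kcns1 or Kcnk6. The other probes of Kcnk5 and Kcnmb4 were not lowest there.

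Some Kcn genes lie next to each other in the gene table of GRCm38.p6, with no protein-coding gene between them. This held for 8 adjacent pairs of the 80 genes. Neighbours were not tested against each other. On chromosome 6, Kcna5, Kcna1 and Kcna6 adjoin. Kcna5 (0.83) and both Kcna6 probes (0.96 and 0.45) were called higher in hypothalamus. Kcna1 was not called (0.57, SE 0.24, limma adjusted p 0.0937), although its difference lay above the smaller of the Kcna6 values. On chromosome 3, Kcna3, Kcna2 and Kcna10 adjoin, and only Kcna2 was called higher in hypothalamus. On chromosome 11, Kcnj16 was beyond 2-fold and its neighbour Kcnj2 differed by 0.03, not called (adjusted p 0.929).

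Genes of proteins that assemble with these channels were listed beside them. Of 24 listed partner genes, 20 had a probe, 14 were called higher in hypothalamus (12 beyond 2-fold), 1 was higher in liver and 5 were not called, with a median difference of 2.32 against -0.05 over all probes. Over all probes, 22.6% were called higher in hypothalamus, 11.2% beyond 2-fold there, and 21.8% higher in liver. These shares are only a rough setting for this list and those below. A listed gene was represented by its brightest probe alone, while the shares and the -0.05 take in every probe, dim second probes included. The list counts and medians are therefore not like for like with these values, and no excess is read from them. Dpp6 and Dpp10, transmembrane partners of Kv4 channels, differed by 7.59 (SE 0.10, at least 94.7-fold) and 5.10 (SE 0.09, at least 15.6-fold). Stx1a, a SNARE protein that binds Kv channels, differed by 5.96 (SE 0.11, at least 35.8-fold). The single partner higher in liver was Abcc9. Kcnd2, Kcnip1 (1 of its 2 probes), Kcnip3 and Kcnip4 were beyond 2-fold in the same direction as Dpp6 and Dpp10. Kcnip2 was called with 0.94 on probe ILMN_3124037 alone. The hypothalamus mean of that probe, 5.48, lay below the liver floor, so no minimum fold can be given. The other Kcnip2 probes (0.03 and 0.22) were not called and were detected on no array.

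Other cation channels and transporters give the setting. Of 10 HCN and CNG channel genes, 8 had a probe, 3 were called higher in hypothalamus and 1, Cnga1, was higher in liver (-0.98), with a median of 0.15. The difference of Cnga1 was -0.0150 in the authors' values and was not called there (adjusted p 0.870). The pacemaker channel genes Hcn2 (5.59, at least 27.3-fold) and Hcn3 (2.74, at least 4.95-fold) were beyond 2-fold. Of 21 pump and cotransporter genes, 16 had a probe, 7 were called higher in hypothalamus and 3 in liver, with a median of 0.39. Fxyd6 (7.36, 165-fold), Atp1b2 (7.03, at least 88.6-fold) and Atp1b1 (3.81, 14.0-fold), all subunits of the sodium-potassium pump or its regulators, were higher in hypothalamus. Higher in liver were the potassium-chloride cotransporter Slc12a7 (-2.46, at least 4.58-fold), the pump regulator Fxyd1 (-2.33, 5.02-fold) and the sodium-chloride cotransporter Slc12a3 (-0.70). In the authors' values Slc12a7 was -0.62 and Fxyd1 was -0.76, smaller but still called. Slc12a3 was -0.0326 in the authors' values and was not called there (limma adjusted p 0.632).

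Sodium and calcium channels, which potassium channels oppose, had no liver calls. Of 14 sodium channel genes, 8 had a probe and 5 were called higher in hypothalamus, with a median of 2.50. Scn2b, detected on 1 liver array, differed by 5.83, Scn1a by 4.22 (at least 8.99-fold) and Scn3b by 3.72 (at least 6.18-fold). Of 18 calcium channel genes, 12 had a probe and 7 were called higher in hypothalamus, with a median of 1.34. Cacna1h, a T-type channel of burst firing, differed by 5.21 (at least 17.8-fold), Cacna2d1 by 5.03 (at least 15.6-fold) and Cacna2d3 by 4.44 (at least 12.4-fold).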

How the data were processed

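Total RNA of 8 samples was hybridised to Illumina bead arrays, each array to 1 sample. For every probe on every array the authors deposited a linear intensity, not normalized between arrays, and a detection p-value. A second deposited table holds intensity values normalized by the authors, and served as an alternative, its method being not given in the sources used here. The submitters' processing notes name R 2.15.0 and lumi 2.10.0 but not what each did. Depth has no count here, so the number of arrays limits the precision.

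Signals were processed with neqc of limma 3.58.1 in R 4.3.3, which infers negative controls from detection p-values and corrects by normexp with an offset of 16. It then quantile-normalizes the 8 arrays and takes log2 of the result. That scale sets a tissue difference relative to the bulk of probes and widens differences among dim probes. All 25697 probes were fitted with tissue as the only term, since a filter on detection passes a member through the tissue where it is high. Gene names came from the platform annotation, where 23978 probes had 1 symbol, 1719 had none and 0 had several. The 119 Kcn probes all matched the GRCm38.p6 gene table. Lists of other genes used the probe with the highest mean over the 8 arrays, and 143 of 175 list entries had one. The fit was tested on simulated data.

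Genes named with values were, in each subfamily, up to 4 with the largest difference towards hypothalamus among called probes detected on all 4 arrays there, those called higher in liver and detected on at least 3 liver arrays, those detected on all 8 arrays, and in each tissue the 5 with the highest SD. From the partner, channel and transporter lists, up to 3 called genes a direction were named. The members and lists were chosen with earlier results of these data known. Alternatives were median scaling, cyclic loess, no background correction, the authors' values, a detection filter, 1 probe a gene, a stricter detection p-value of 0.01, the replicate number as a block, and each array left out in turn. Columns of other samples numbered 0.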

Additional observations from a re-analysis of the deposited data

Results flagged for a closer look

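Each named probe, and Kcne2, was checked in each tissue where at least 1 array detected it for an array far from the other 3. Of 43 groups of 4 arrays, 5 held such an array. Chance alone gives about 1 in 20, but some probes were named for their spread and Kcne2 for this value, so the count cannot be read against that rate. The Kcnf1 value of liver replicate 4 was 5.79, with the other liver arrays between 4.64 and 4.71. For Kcnj4, liver replicate 1 read 5.83 and the others 5.37 to 5.43. The Kcnma1 value of hypothalamus replicate 1 was 7.16, with the others between 6.07 and 6.18. Kcnab2 read 12.17 on hypothalamus replicate 3 and 11.73 to 11.79 on the others. On the same array Kcne2 read 7.40, against 4.30 to 4.79. Kcnf1, Kcnj4, Kcnma1 and Kcnab2 were called higher in hypothalamus with and without the array named, and Kcne2 was called in neither.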

How the results depend on the processing

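The count of Kcn probes called higher in liver was 40 under median scaling, 2 in the values normalized by the authors and 5 to 11 when single arrays were left out, against 9. Those called higher in hypothalamus numbered 98 in the authors' values, against 44. Probes beyond 2-fold in hypothalamus numbered 19 with cyclic loess, 13 with no background correction and 18 in the authors' values, against 29. Those beyond 2-fold in liver numbered 1 in the authors' values and 1 with 1 probe a gene, against 2, since both probes belong to Kcnk5. The median difference over the Kcn probes was -0.051 under median scaling, 0.0496 with no background correction, 0.25 in the authors' values, 1.71 with the detection filter and 0.0613 to 0.170 with single arrays left out, against 0.14. The detection filter leaves 52 Kcn probes, most of them detected in hypothalamus alone. Signs turned for Kcnk6 (0.0367 under median scaling and 0.17 in the authors' values), Kcnn1 (0.40 and 0.31), Kcns1 (0.00924 in the authors' values) and Kcne2 (-0.15 to 0.85 with single arrays left out). The cause was not tested. Kcng4 was called in the authors' values (0.48), with the detection filter (0.74) and without hypothalamus replicate 2 or 3. Other settings kept every count of calls and detections within 1.5 times. With the replicate block, 45 probes were called higher in hypothalamus, 8 higher in liver, and 29 and 2 beyond 2-fold, and of the named genes it changed only the call of Kcng4 (adjusted p 0.0265). Deviations of same-numbered arrays of both tissues correlated at 0.13, 0.11, 0.06 and 0.17 over 7992 probes, and each array correlated best with its own number. That is a hint from the data, and the arrays are taken to share only a number. Signal over background limits these data: 43 of 119 probes were detected on no array, and their differences are not levels.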
